A study of Mus musculus with 8 samples.

Results

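Genes of the major histocompatibility complex (MHC) and of antigen processing were followed through mouse livers that carried human A20, an inhibitor of NF-κB, or the control protein βgal. The 10 genes were chosen by name, and every probe set annotated to 1 of them was taken. They were H2-Aa, H2-Ab1, H2-Eb1, Cd74, Ciita, Tap1, Tap2, Psmb8, Psmb9 and B2m, out of 18193 genes with a probe set that named 1 symbol, and they were read by 22 of 34945 such probe sets. Of these 22, 21 reached a mean intensity of 40 in at least 1 group, and the 1 that did not was a further set of H2-Aa.

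Liver RNA was hybridised to Affymetrix mouse arrays, on which each probe set reads a transcript by several short probes, and the deposited values were normalized intensities on a linear scale. There were 4 groups of 2 arrays. The post-A20 and pre-A20 livers had received the recombinant adenovirus rAd.A20, and the post-βgal and pre-βgal livers rAd.βgal, so that every group, controls included, carried an adenoviral vector. All mice were 8-week-old BALB/c, the vectors were given by penile vein 5 days before a 78% liver resection, and by the records the transgene reached only a part of the hepatocytes. The pre groups hold liver taken at resection (0 h) and the post groups the remnant 24 h later. Each array carried the pooled RNA of 3 mice, so the spread between arrays is a spread between pools. In the records, the treatment text of both post-A20 samples repeats the βgal wording, while their titles and descriptions give A20, and they were taken as post-A20. Expression of the human transgene was not analysed here.

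Array medians lay between 153 and 166. Degradation of RNA was read from β-actin, as the intensity of its 3′ control set over that of its 5′ one, which was 7.0 on pre-βgal replicate 1 and 3.64 on post-βgal replicate 1, against 1.27 to 1.62 on the other 6 arrays. Summed intensities of 6 hepatocyte markers lay between 67576 and 78151 on the 8 arrays, and no marker of any cell type examined was at 0 on any array.

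MHC class II molecules present peptides from engulfed proteins to CD4+ T cells, and in the liver they are carried mainly by Kupffer cells, dendritic cells, B cells and sinusoidal endothelium. Their α and β chains assemble in the endoplasmic reticulum around the invariant chain Cd74, and their genes are switched on by the coactivator Ciita, which is itself inducible by interferon γ. MHC class I molecules, carried by nearly all nucleated cells, present peptides that the proteasome cuts in the cytosol. Interferon γ replaces the constitutive catalytic proteasome subunits by inducible ones such as Psmb8 and Psmb9, the pump Tap1-Tap2 carries the peptides into the endoplasmic reticulum, and B2m is the invariant light chain of every class I molecule.

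Of the 10 genes, 7 lie together in the MHC on chromosome 17, in the order Psmb9, Tap1, Psmb8, Tap2, H2-Ab1, H2-Aa and H2-Eb1. Ciita lies on chromosome 16, Cd74 on 18 and B2m on 2. RefSeq promoter sequences of the build GRCm38.p6 were matched for 6 of the genes, that is H2-Aa, H2-Eb1, Tap1, Psmb8, Psmb9 and B2m. The 4 stretches that follow are shown because they stand before 3 kinds of gene described below: class II genes (H2-Aa, H2-Eb1), a class I processing pair (Tap1 and Psmb9) and B2m, whose intensity did not follow the rest. They are of the C57BL/6J reference, and BALB/c mice carry other MHC alleles. Each is written 5′ to 3′ in the direction of the first gene named and ends at the base before its start. Capitals mark letters that match a motif on either strand: the CCAAT box (ATTGG), the cAMP response element (TGACGTCA), the core of the interferon-stimulated response element (GAAA and, after any 2 bases, GAAA again) and the κB consensus.
H2-Aa, chr17:34287824-34287973, minus strand: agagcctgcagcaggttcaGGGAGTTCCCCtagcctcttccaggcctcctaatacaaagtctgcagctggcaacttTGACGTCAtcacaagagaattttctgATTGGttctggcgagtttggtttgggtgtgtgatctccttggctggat
H2-Eb1, chr17:34305717-34305866, plus strand: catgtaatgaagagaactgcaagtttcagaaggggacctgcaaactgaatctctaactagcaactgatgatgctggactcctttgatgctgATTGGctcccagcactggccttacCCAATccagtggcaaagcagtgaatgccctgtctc
Tap1 to Psmb9, chr17:34187331-34187555, plus strand: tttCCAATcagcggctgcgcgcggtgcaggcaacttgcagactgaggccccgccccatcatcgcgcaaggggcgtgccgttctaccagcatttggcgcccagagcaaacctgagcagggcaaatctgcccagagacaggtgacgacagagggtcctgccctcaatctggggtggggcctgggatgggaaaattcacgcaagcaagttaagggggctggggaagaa
B2m, chr2:122147537-122147686, plus strand: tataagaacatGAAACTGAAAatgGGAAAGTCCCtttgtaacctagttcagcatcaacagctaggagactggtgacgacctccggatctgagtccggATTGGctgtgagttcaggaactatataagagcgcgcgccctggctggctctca

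The matches differed between these promoters. Tap1 and Psmb9 are transcribed away from each other, and only the 225 bases shown lie between their starts. The CCAAT box, a site of the class II promoter module, was found in the 250 bases before the start of 5 of the 6 genes (Tap1 and Psmb9 share 1 match, read from either side) and of 33.8% of all 32851 promoters. In H2-Aa it lay 48 to 44 bases before the start, with the cAMP response element at 74 to 67 bases, an 8-letter match held by 1.55% of all promoters and by none of the other 5. The κB consensus was matched in H2-Aa and B2m (3.9% of all promoters), the interferon-stimulated core in B2m (2.98%) and GAS, the letters TTCNNNGAA read by interferon-activated STAT factors, in Psmb8 (7.02%). In H2-Aa 2 κB matches on opposite strands overlap, and together they give the 11 capitals. A match is a stretch of letters and was not read as a bound site.

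Before resection, the class II genes were 2.80 to 3.35 times lower in pre-A20 livers than in pre-βgal livers, and the inducible proteasome and Tap genes 2.16 to 2.89 times lower. The 2 arrays of pre-A20 lay below the 2 arrays of pre-βgal for all 8 of these genes, as for 29.3% of all genes, whereas Ciita and B2m overlapped. None of the 10 passed limma's test at an adjusted p under 0.05, which called 4.63% of the 17790 genes tested in this comparison (3.32% lower, 1.31% higher), and all 8 had an unadjusted p under 0.05, as did 23.4% of all genes.

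The values by array carry this. H2-Aa, the class II α chain of I-A, had intensities of 399 and 351 in pre-A20 livers, against 953 and 1221 in pre-βgal livers. H2-Ab1, its β chain, had 419 and 472 in pre-A20 livers, against 1740.3 and 1344 in pre-βgal livers. H2-Eb1, the β chain of I-E, had 401 and 539 in pre-A20 livers, against 1738 and 1040.3 in pre-βgal livers. In each case the higher pre-A20 array stayed well under the lower pre-βgal array. Cd74 had 1129.8 and 974 in pre-A20 livers, against 4187 and 2876 in pre-βgal livers. The log2 difference was −1.49 (95% interval −2.40 to −0.57, adjusted p = 0.0744) for H2-Aa and −1.75 (−2.72 to −0.77, adjusted p = 0.0575) for H2-Ab1. It was −1.50 (−2.55 to −0.45, adjusted p = 0.1001) for H2-Eb1 and −1.71 (−2.89 to −0.53, adjusted p = 0.0970) for Cd74. H2-Ab1 thus had the smallest adjusted p of the 10 genes. All log2 differences are on the scale of log2(intensity + 16) from a limma model of all 8 arrays.

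The class I processing genes showed the same separation. Tap1, the first chain of the peptide pump, had intensities of 749 and 709 in pre-A20 livers, against 2554 and 1784 in pre-βgal livers. Tap2, the partner chain, had 508 and 354 in pre-A20 livers, against 1544 and 909.7 in pre-βgal livers. The 2 chains of the pump were lower by similar amounts, with log2 differences of −1.53 (−2.48 to −0.58, adjusted p = 0.0760) for Tap1 and −1.45 (−2.34 to −0.56, adjusted p = 0.0740) for Tap2. Psmb8, an inducible proteasome subunit, had 1249 and 1381 in pre-A20 livers, against 4414 and 3202 in pre-βgal livers (log2 difference −1.51, adjusted p = 0.0970). Psmb9, another, had 1803 and 1995 in pre-A20 livers, against 4443 and 3818 in pre-βgal livers (log2 difference −1.11, adjusted p = 0.156). Psmb9 had the smallest difference of the 8, and no pre-A20 array of it came near a pre-βgal array.

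**Figure D1:**
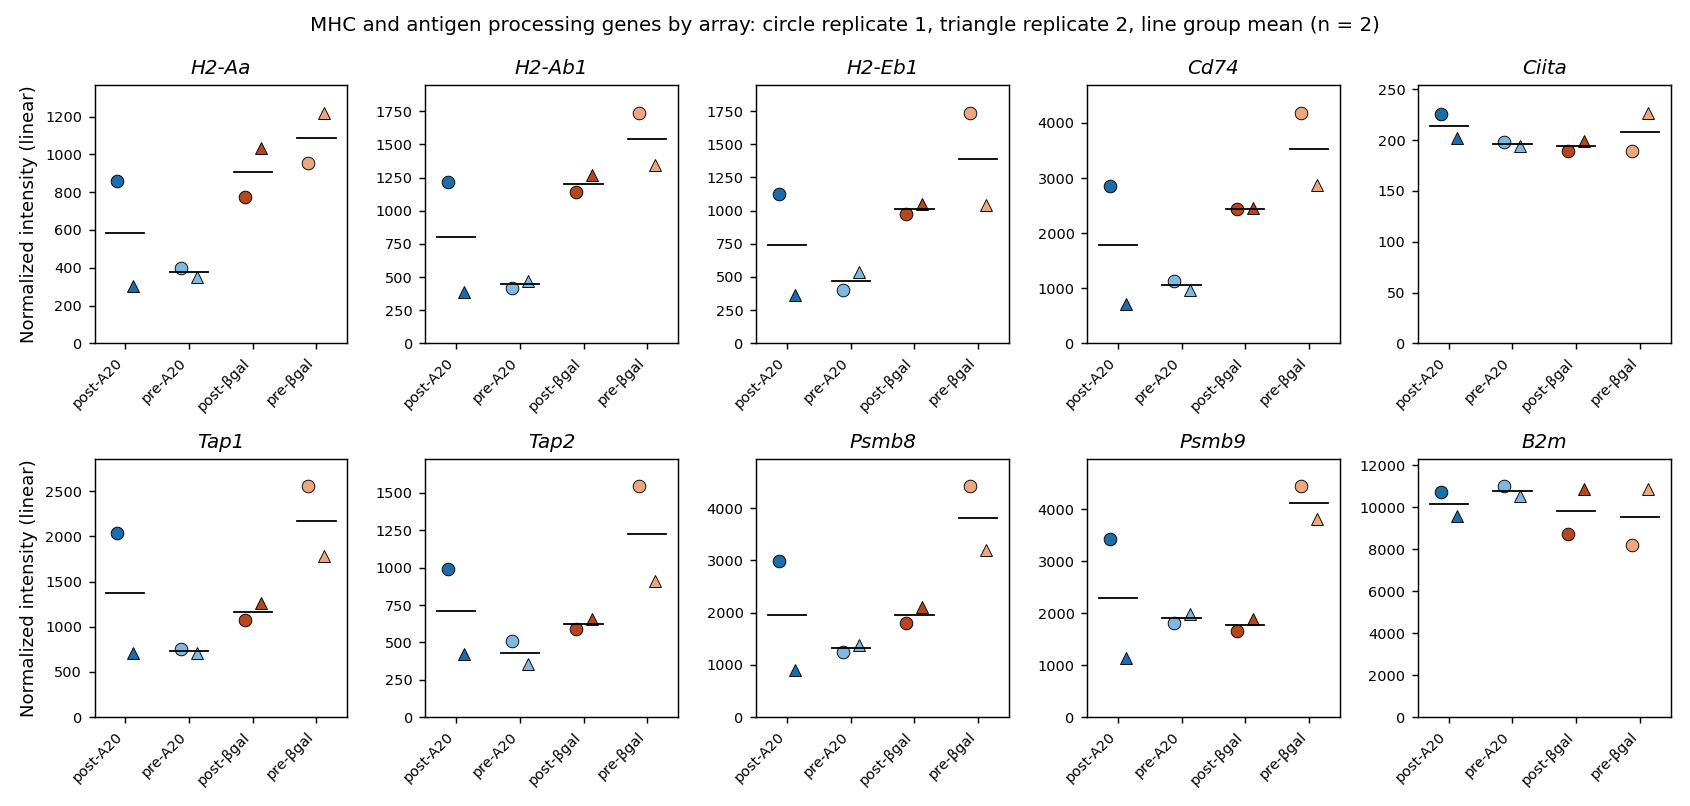
Normalized intensity (linear scale, axis from 0) of each gene on the 8 arrays, by its brightest probe set. Circles are replicate 1, triangles replicate 2 and lines the mean of the 2 arrays of a group. Pre-A20 arrays lie below both βgal groups for the class II genes, and post-A20 replicate 1 lies far above replicate 2 for 8 of the 10 genes.

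Ciita and B2m behaved otherwise. Ciita was read at 199 and 194 in pre-A20 livers and at 189 and 227 in pre-βgal livers, a log2 difference of −0.07 (−0.33 to 0.18, adjusted p = 0.731). The lower end of its interval did not reach the difference of any class II gene. Its intensities, however, lay near the array medians (153 to 166), and its second set, given below, had a log2 difference of −0.41. B2m, among the brightest genes of the array, had 11000 and 10543 in pre-A20 livers, against 8204 and 10896 in pre-βgal livers (log2 difference 0.19, −0.19 to 0.57, adjusted p = 0.528). Its low pre-βgal value came from replicate 1, the array with the β-actin ratio of 7.0, and without that array the difference was −0.017.

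The other probe sets were compared to see whether the reading depends on the set chosen. Over the 21 sets kept, 15 were lower in pre-A20 arrays without overlap, against 27.8% of the 33500 sets tested, 1 was higher without overlap, against 22% of the sets tested, and 5 overlapped. All 3 sets of H2-Aa were lower (log2 differences of −1.27 to −1.49), as were all 3 of H2-Ab1 (−0.90 to −1.75) and both of Psmb8 (−0.91 and −1.51). No set passed limma's test at an adjusted p under 0.05 in any comparison of 2 groups, where 1.24% (before resection), 0.313% (after it), 1.25% (resection with βgal) and 0.612% (resection with A20) of all sets did. Several of these sets carry the suffixes s_at or x_at, which mark probes shared with related transcripts, and H2 genes are a family of near copies, so their intensities can hold signal of relatives.

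Tap1 was the exception. Its main set had a mean intensity of 1359, whereas the other 3 lay at 47.2 to 108. Of these, the dimmest had 65.8 and 63.1 in pre-A20 arrays, against 44.7 and 39.4 in pre-βgal arrays, the opposite order (log2 difference 0.47, adjusted p = 0.0613 over probe sets). Averaged over its 4 sets, the log2 difference of Tap1 shrank to −0.28 (adjusted p = 0.346). The second set of Ciita, with a mean of 112, had 96.5 and 94.1 in pre-A20 arrays, against 132 and 131 in pre-βgal arrays (log2 difference −0.41, adjusted p = 0.0885 over probe sets), unlike its brighter main set.

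**Figure D2:**
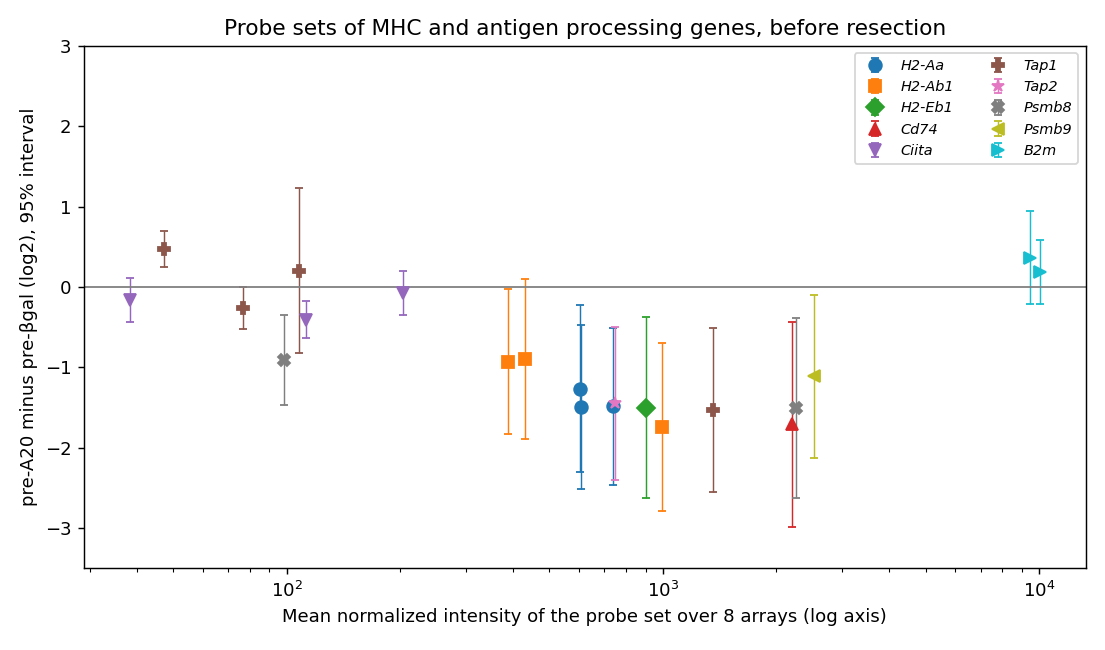
Log2 difference of pre-A20 minus pre-βgal (points) with its 95% interval (bars) for each of the 21 probe sets, against the set's mean intensity over 8 arrays on a log axis. The sets with means from 387 to 2522 all lie below 0, and the dimmer sets of Tap1 and Ciita and the bright sets of B2m lie nearer to 0 or above it.

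How many of the genes were called before resection differed with the arrays fitted, as did the calls over all genes. The 2 post-A20 arrays, which are not part of this difference, disagreed strongly over the 8 genes. Without post-A20 replicate 1 all 8 were called lower (adjusted p 0.0193 to 0.0459), and likewise without post-A20 replicate 2 (0.0193 to 0.0463), with the same log2 differences, while 558 and 571 of all genes were called in these fits, against 823 with all arrays. Without pre-βgal replicate 2, the log2 difference was −1.93 for H2-Ab1, −1.87 for H2-Eb1, −1.79 for Tap1 and −1.82 for Tap2. These 4 values rest on pre-βgal replicate 1, the array with the β-actin ratio of 7.0, which had the higher pre-βgal intensity for each. Fitted on the 4 arrays compared alone, 5 of the 10 genes were called, among 291 of all genes. A criterion like that of the study's methods, by which the lower end of the 90% interval of the fold change must reach 1.5, was applied to the intervals of the limma model and not to those of the study's software. It was met by 7 of the 10, all but Psmb9, Ciita and B2m, against 1.56% of all genes in the same direction. Without the 2 βgal arrays of high β-actin ratio, which leaves 1 array in each βgal group, the 8 log2 differences lay between −1.66 and −1.0.

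For the cell types named above as carriers of class II, summed marker intensities before resection were lower for 2 and not for the other 2. Single markers differed within each sum. Summed over the 10 Kupffer cell and macrophage markers, intensity was 5528 to 5658 in pre-A20 arrays, against 8883 to 9319 in pre-βgal arrays, and 7 of the 10 were lower and 1 was higher without overlap, against 29.3% and 22.1% of all genes. Csf1r, the receptor of the macrophage growth factor, fell by 0.93 and C1qa, a complement subunit made by macrophages, fell by 0.89 on the log2 scale (adjusted p = 0.0323 and 0.0439 in limma). Marco, a scavenger receptor of macrophages, went the other way, with 248 and 254 in pre-A20 arrays, against 184 and 159 in pre-βgal arrays (log2 difference 0.51, adjusted p = 0.0760). The sum of 7 dendritic cell markers was 1327 to 1489.6 in pre-A20 arrays, against 1947 to 1974 in pre-βgal arrays. Of these 7, 4 were lower and 0 higher without overlap, and the median log2 difference was −0.12. Flt3, a receptor of dendritic cell precursors, had 444 and 371 in pre-A20 arrays, against 763 and 806 in pre-βgal arrays. It fell by 0.92 (adjusted p = 0.0258 in limma). Zbtb46 had 392 and 325 in pre-A20 arrays, against 462 and 508 in pre-βgal arrays. Itgax (−0.16), Xcr1 (−0.07) and Siglech (0.03) had small log2 differences. The sum of 4 neutrophil and monocyte markers was 1038 to 1095 in pre-A20 arrays, against 2510.0 to 3073 in pre-βgal arrays. That of 11 T and NK cell markers was 2561 to 2607 in pre-A20 arrays, against 2889 to 3154 in pre-βgal arrays. The sum of 7 B cell markers was higher, at 883 to 929.8 in pre-A20 arrays, against 766 to 815 in pre-βgal arrays. All 7 were dim, and the brightest, Blk, had 219 and 226 in pre-A20 arrays. Of them 4 were higher and 1 lower without overlap, with a median log2 difference of 0.11. The sum of 7 sinusoidal endothelium markers was also higher, at 3695 to 3774 in pre-A20 arrays, against 3314 to 3418 in pre-βgal arrays. Of these 7, 2 were higher and 2 lower without overlap, and their median log2 difference was −0.015. Clec4g had 1264 and 1734 in pre-A20 arrays, against 1107 and 1104 in pre-βgal arrays. Stab1 went the other way, with 338 and 320 in pre-A20 arrays, against 488 and 398 in pre-βgal arrays. None of the 14 B cell and endothelium genes was called. In whole liver, fewer cells of a type and less RNA per cell cannot be told apart, and the part of these cells in the class II difference was not tested.

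After resection, the 2 transgenes were not separated. The class II genes had log2 differences of −0.78 to −0.65 between post-A20 and post-βgal livers (adjusted p 0.296 to 0.436) and the 4 class I processing genes −0.24 to 0.16 (0.785 to 0.955). The arrays overlapped for all 8. None of the 10 genes was called in limma and none had an unadjusted p under 0.05, where 1.42% of all genes were called (0.905% lower) and 21.5% had such a p. Ciita was higher without overlap, as were 33.7% of all genes, at 226 and 203 in post-A20 livers, against 189 and 199 in post-βgal livers.

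This overlap came from the 2 post-A20 arrays. H2-Ab1 had 1217 on post-A20 replicate 1 and 391 on replicate 2, against 1138 and 1267 in post-βgal livers. Cd74 had 2859.5 and 722 in post-A20 livers, against 2437 and 2449.8 in post-βgal livers. Replicate 1 thus matched or passed the βgal livers, and replicate 2 was lower than every βgal array. H2-Aa had 859 and 305 in post-A20 livers, against 775 and 1034 in post-βgal livers, and H2-Eb1 1126 and 362, against 974 and 1053. Tap1 had 2034 and 710.4 in post-A20 livers, against 1076 and 1259 in post-βgal livers. For Tap1, unlike H2-Aa, replicate 1 stood above both βgal arrays. Tap2 had 990.0 and 425 in post-A20 livers, against 589.9 and 657 in post-βgal livers. Psmb8 had 2985 and 908 in post-A20 livers, against 1809 and 2099.9 in post-βgal livers. Psmb9 had 3423 and 1147 in post-A20 livers, against 1652 and 1897 in post-βgal livers. Replicate 2 was below both post-βgal arrays for all 8 genes, and replicate 1 was above both for all but H2-Aa and H2-Ab1, where it lay between them.

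Between the 2 post-A20 arrays the 8 genes differed by 1.19 (Tap2) to 1.96 (Cd74) on the log2 scale, always with replicate 1 higher, which is 2.28 to 3.90 times. Only 0.0618% of the genes tested differed more than Cd74 between these arrays and 0.365% more than Tap2, and the median size over all genes was 0.12. Between the arrays of the other groups the same genes differed by at most 0.75 in either direction, and the β-actin ratio of the 2 post-A20 arrays was alike (1.40 and 1.31). The same 3′ over 5′ ratio of pyruvate carboxylase was 6.23 on replicate 1 and 3.60 on replicate 2, and its part in the split was not tested. Ciita (0.15) and B2m (0.16) hardly took part. Without post-A20 replicate 1, the log2 differences from post-βgal were −1.74 to −1.44 for class II and −1.09 to −0.53 for class I processing. Without replicate 2 they were −0.06 to 0.23 and 0.61 to 0.94. Each of these fits keeps only 1 post-A20 array, so only sizes are given. The direction for 7 of the 8 genes, all but H2-Aa, depended on which pool was kept.

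**Figure D3:**
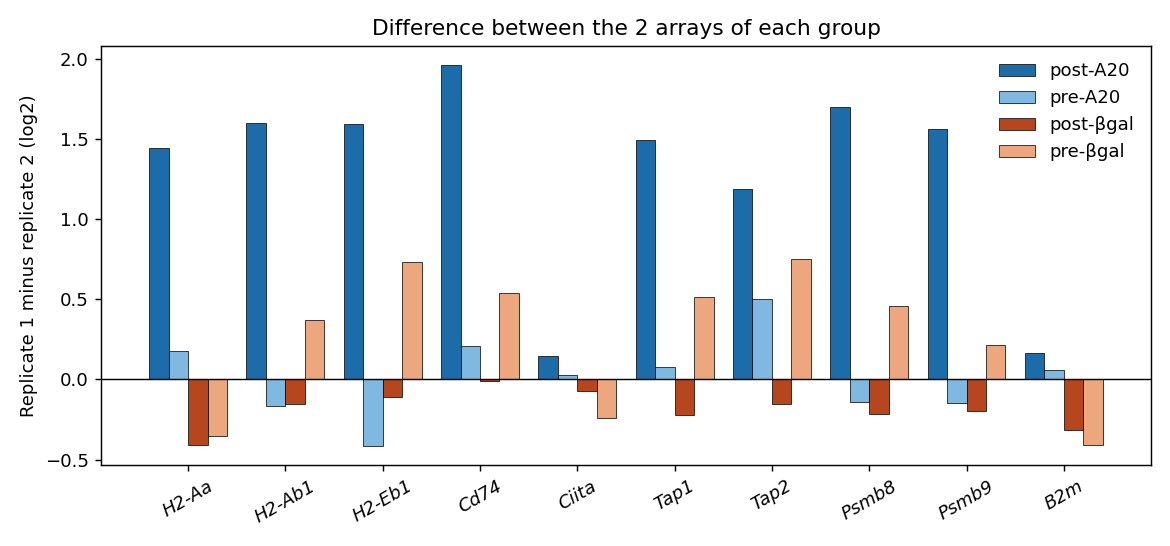
Difference between replicate 1 and replicate 2 of each group (bars, log2 scale, axis through 0) for the 10 genes. The post-A20 bars of 8 genes reach 1.19 to 1.96, while no bar of the other groups passes 0.75 in size.

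Kupffer cell and macrophage markers did not show this split to the same degree. Their sum was 8639 on post-A20 replicate 1 and 8009.6 on replicate 2, against 6892 and 8807 in post-βgal livers, whereas the intensities of the 4 class II genes summed to 6062 and 1780.2 on the post-A20 arrays, against 5324 and 5804 in post-βgal livers. The dendritic cell sum was 1774 and 1606 in post-A20 livers, against 1604 and 1642 in post-βgal livers. Genes of the interferon γ response did show it. Ifng itself was dim, at 81.1 and 49.6 in post-A20 livers, against 67.2 and 84.7 in post-βgal livers, and Irf1, the interferon-induced transcription factor, had 3395 and 1110.2 in post-A20 livers, against 1568 and 1856 in post-βgal livers. Ubd, a ubiquitin-like modifier, had 1242 and 276 in post-A20 livers, against 414 and 537 in post-βgal livers. Whether these genes account for the split was not tested.

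Resection was set against the state before it for each transgene. In βgal livers, the class I processing genes were lower 24 h after resection without overlap of the arrays, by log2 differences of −0.87 to −1.21, and class II genes less so, by −0.26 to −0.50. Psmb9 had 1652 and 1897 in post-βgal livers, against 4443 and 3818 in pre-βgal livers (log2 difference −1.21, adjusted p = 0.130). Tap2 had 589.9 and 657 in post-βgal livers, against 1544 and 909.7 in pre-βgal livers (−0.91, adjusted p = 0.1995). For Psmb9 the post-βgal arrays thus overlapped the pre-A20 arrays (1803 and 1995). Among class II genes H2-Ab1 and Cd74 were lower without overlap, and H2-Aa and H2-Eb1 overlapped. None of the 10 was called in limma and 2 (Tap2, Psmb9) had an unadjusted p under 0.05, against 3.99% (2.48% higher) and 24% of all genes. Arrays were lower without overlap for 6 of the 10 genes and for 33% of all genes. With either post-A20 array left out, neither of them part of this difference, Psmb9 kept its log2 difference of −1.21.

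In A20 livers the 8 genes had log2 differences of 0.06 to 0.71 after resection, with overlap for all 8 (adjusted p 0.441 to 0.958). Tap1 had 2034 and 710.4 in post-A20 livers, against 749 and 709 in pre-A20 livers. Psmb9 had 3423 and 1147 in post-A20 livers, against 1803 and 1995 in pre-A20 livers. Post-A20 replicate 1 was above both pre-A20 arrays for all 8 genes, and replicate 2 was below both of them for all but Tap1 and Tap2. Without replicate 1 the differences were −0.72 to 0.0018, and without replicate 2 they were 0.85 to 1.46. None of the 10 genes was called in limma or had an unadjusted p under 0.05, against 2.01% (1.22% higher) and 16.6% of all genes. Ciita was higher without overlap, at 226 and 203 in post-A20 livers, against 199 and 194 in pre-A20 livers, as were 29.4% of all genes, with a log2 difference of 0.11 (adjusted p = 0.676).

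**Figure D4:**
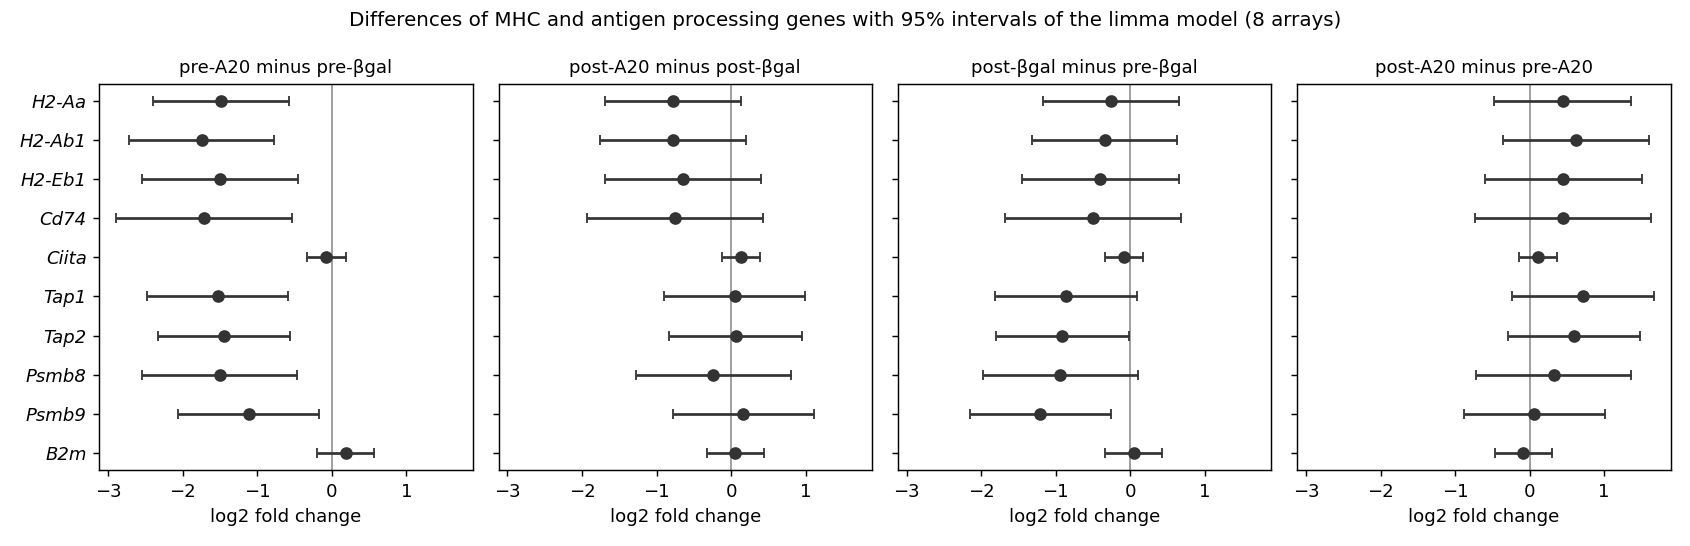
Log2 differences (points) with 95% intervals of the limma model (bars) for the 10 genes in 4 comparisons. In pre-A20 minus pre-βgal the intervals of 8 genes lie below 0, between −2.89 and −0.17, and those of post-A20 minus post-βgal and post-A20 minus pre-A20 all cross 0.

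Whether resection acted differently with A20 was tested by the interaction. It was positive for the 8 genes, from 0.71 (H2-Aa) to 1.58 (Tap1), and none of the 10 was called, as against 0.0281% of all genes. Tap1 (0.24 to 2.92, adjusted p = 0.2398) and Tap2 (1.51, 0.25 to 2.77, adjusted p = 0.232) had an unadjusted p under 0.05, as did 17.3% of all genes. Without post-A20 replicate 1 it was −0.026 to 0.91 over the 8 genes, and without replicate 2 it was 1.43 to 2.33.

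Averaged over both times, H2-Aa fell by 1.13 (−1.78 to −0.49, adjusted p = 0.0453) and H2-Ab1 fell by 1.26 (−1.95 to −0.57, adjusted p = 0.0409) in A20 livers against βgal livers. These were the only 2 of the 10 genes called in limma, where 8.59% of all genes were called, 5.2% lower, and 7 had an unadjusted p under 0.05, as did 28% of all genes. H2-Eb1 (−1.07, adjusted p = 0.0768) and Cd74 (−1.23, adjusted p = 0.0729) had differences of similar size. The class I processing genes lay between −0.87 and −0.47 (adjusted p 0.124 to 0.324). Both calls were lost when any 1 array was left out other than post-A20 replicate 1 or pre-βgal replicate 2, with adjusted p of up to 0.141. The log2 differences in those 6 fits were −1.31 to −0.86 for H2-Ab1 and −1.24 to −0.77 for H2-Aa, and 211 to 1076 of all genes were called, against 1528 with all arrays. The average of resection over both transgenes called none of the 10 in limma, and none had an unadjusted p under 0.05, against 6.14% and 22.5% of all genes.

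Ranked by group mean, the class II genes had 1 order, from pre-A20 (lowest) through post-A20 and post-βgal to pre-βgal. H2-Ab1 averaged 804 ± 585 in post-A20, 445 ± 38.1 in pre-A20, 1203 ± 91.4 in post-βgal and 1542 ± 281 in pre-βgal livers (SD, n = 2 arrays each). The SD of post-A20 spans its neighbours in this order, and post-βgal and pre-βgal differed by about as much as the pre-βgal arrays differed between themselves. Tap1 averaged 1372 ± 936 in post-A20, 729 ± 28.4 in pre-A20, 1167 ± 129 in post-βgal and 2169 ± 545 in pre-βgal livers, so that post-A20 and post-βgal changed places. Psmb9 averaged 2285 ± 1609 in post-A20, 1899 ± 135 in pre-A20, 1775 ± 173 in post-βgal and 4130.4 ± 442 in pre-βgal livers, and 3 of its groups were within their spread of each other. B2m averaged 10161 ± 810.3 in post-A20, 10772 ± 324 in pre-A20, 9812 ± 1516 in post-βgal and 9550.4 ± 1903 in pre-βgal livers, with no order beyond the spread.

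Across the 8 arrays the 8 genes followed one another. Pearson's r between their log2 values was 0.899 to 0.982 within the 4 class II genes, 0.862 to 0.974 within the 4 class I processing genes and 0.708 to 0.982 over all 28 pairs. These arrays share groups, so the values describe this set of arrays only. Ciita had r of 0.0985 to 0.397 with the 8 genes and B2m −0.372 to −0.0770.

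The genes with the most similar pattern were found for the mean of each kind. For class II they were Samd9l (r = 0.988), Gm9706 (0.984), Cd52 (0.977), Id3 (0.973) and Mlkl (0.972). For class I processing they were Irf1 (0.990), Mpeg1 (0.981), Psmb10 (0.980), Usp49 (0.979) and Tapbp (0.976). Irf1 had 1307 and 1431 in pre-A20 livers, against 4395 and 3481 in pre-βgal livers, with the split of the post-A20 arrays given above.

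The rest of the pathway was read from a list of 53 further genes, of which 39 could be tested. Before resection 2 were called lower and 1 higher in limma, against 3.32% and 1.31% of all genes. There were 19 lower without overlap, against 29.3% of all genes, and the median log2 difference was −0.20, against −0.03 over all genes. H2-DMa, a chain of the peptide exchanger for class II, had 129.5 and 150.01 in pre-A20 livers, against 446 and 328 in pre-βgal livers, and fell by 1.36 (adjusted p = 0.0404). Marchf1, a ligase that marks class II for removal from the surface, had 169 and 136 in pre-A20 livers, against 247 and 278 in pre-βgal livers, and fell by 0.73 (adjusted p = 0.0331). Its relative Marchf8 had 1032 and 1099.5 in pre-A20 livers, against 658 and 574 in pre-βgal livers, and rose by 0.78 (adjusted p = 0.0323). These ligases thus ran in opposite directions.

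Among class I genes, H2-K1 had 5973 and 4001 in pre-A20 livers, against 8845 and 8085 in pre-βgal livers (log2 difference −0.79, adjusted p = 0.0950). H2-D1 had 6782 and 5556 in pre-A20 livers, against 7787 and 8686 in pre-βgal livers (−0.42, adjusted p = 0.211). These heavy chains were lower without overlap, though neither was called, and B2m, which pairs with them, was not. Tapbp, which holds class I to the Tap pump, had 1649 and 1400.4 in pre-A20 livers, against 3820.4 and 2718 in pre-βgal livers (−1.08, adjusted p = 0.0994). Nlrc5, the coactivator of class I genes, had 263 and 197 in pre-A20 livers, against 596 and 344 in pre-βgal livers (−0.94, adjusted p = 0.0982). Psmb10, a further inducible catalytic subunit, had 1330.3 and 1536 in pre-A20 livers, against 5136 and 2864 in pre-βgal livers (−1.41, adjusted p = 0.112). The constitutive subunits that Psmb8, Psmb9 and Psmb10 replace, Psmb5, Psmb6 and Psmb7, had log2 differences of −0.20 to −0.09. Of the cap subunits, Psme1 had −0.67 (adjusted p = 0.112) and Psme3 −0.16 (adjusted p = 0.626). The inducible catalytic subunits thus had larger differences than the constitutive ones, while Psme3 lay within the range of the constitutive ones, and these differences were not tested against each other.

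H2-Ea, the α chain that pairs with H2-Eb1, did not follow its partner. It had 2783 and 2048 in pre-A20 livers, against 2739 and 3327 in pre-βgal livers (log2 difference −0.34, adjusted p = 0.354). After resection it had 3049 and 2657 in post-A20 livers, against 1709.6 and 1997 in post-βgal livers, without the wide split of H2-Eb1 between the post-A20 arrays. Of the other proteins that handle class II, Ctss, a protease of the invariant chain, had 991 and 1355 in pre-A20 livers, against 1373 and 1630.4 in pre-βgal livers (−0.36, adjusted p = 0.398).

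After resection, Lgmn, an endosomal protease, was the single gene of the list called between transgenes. It had 699.7 and 751 in post-A20 livers, against 1429 and 1707 in post-βgal livers, and fell by 1.09 (adjusted p = 0.0317). Before resection it had 378 and 392 in pre-A20 livers and 532 and 634 in pre-βgal livers. With resection Lgmn thus rose by 0.89 in A20 livers (adjusted p = 0.0402) and by 1.40 in βgal livers (adjusted p = 0.00644). Ctsl, another endosomal protease, had 7943 and 8376 in post-βgal livers, against 4136 and 5363 in pre-βgal livers, and rose by 0.79 (adjusted p = 0.0396). In A20 livers Ctsl was also higher, at 8125 and 9910 after resection, against 5304 and 5437 before it, though not called. With all 8 arrays no gene of the 10 was called with resection.

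Of 23 interferon γ pathway genes, 20 could be tested. Before resection 15 were lower without overlap in pre-A20 livers, against 29.3% of all genes, and 2 were called lower, against 3.32% of all genes. The median log2 difference was −1.0, against −0.03 over all genes. Ifng had 39.2 and 43.0 in pre-A20 livers, against 87.6 and 78.8 in pre-βgal livers, and fell by 0.80 (adjusted p = 0.0417). These intensities were dim, well below the array medians (153 to 166), so the call rests on weak signal. The study reports no effect on the level of interferon γ itself. It called array genes by the fold criterion of 1.5, not by an adjusted p, so the 2 readings are unlike measures. For interferon γ target genes it reports lower levels with A20, with Ubd measured by qPCR. The reason for the difference in interferon γ was not tested. Jak2, a kinase at the interferon γ receptor, had 565 and 468 in pre-A20 livers, against 1298 and 1116 in pre-βgal livers, and fell by 1.20 (adjusted p = 0.0206). Jak2 is named here because its call was seen. Irf1 (−1.51, adjusted p = 0.0836), Ubd (−1.84, adjusted p = 0.0997) and Socs1 (−1.24, adjusted p = 0.199) were not called. After resection the median of the 20 was 0.20, against 0.03 over all genes, and none was called.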

How the data were processed

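Pools of RNA from 3 livers were measured on 8 Affymetrix Mouse Genome 430 2.0 arrays, 2 in each of 4 groups. The authors deposited 1 table of normalized intensity values per probe set on a linear scale. Their methods name dChip with invariant set normalization and the submitters' processing notes name MAS5; neither source says which made the table, and its scale was left as deposited. Their number, 2 arrays a group, limits the precision.

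Of 45101 probe sets, 34945 named 1 gene, 932 several and 9160 none in the platform annotation, and 64 were controls. Sets with a mean of at least 40 in 1 group were kept, 16 was added before log2 was taken, and a gene was read through its set with the highest mean (17790 genes). Group means were fitted in R 4.3.3 with limma 3.58.1 (trend on intensity, 4 residual and 4.52 prior degrees of freedom), 2-sided, with Benjamini-Hochberg adjustment over all genes of each of 7 comparisons, and genes with an adjusted p under 0.05 were called. Probe sets were fitted alone in the same way. The fit was tested on simulated data. Tissue came from the lobes removed and from the remnant left behind, but no source ties a pool before resection to a pool after it, and arrays were taken as unpaired.

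The 10 genes and the lists were chosen with earlier results of these data known. All 10 genes are named, and of the lists the genes written down by name, those called in a comparison of 2 groups, and the 5 genes most like each kind by Pearson's r. Alternatives covered scaling, filters, offsets, the variance model, probe set choice, blocks, the arrays fitted and the fold criterion of 1.5; 3 were added after seeing the data (no βgal replicate 1 arrays, an RNA integrity covariate, variances moderated over all probe sets). Motifs were searched on both strands of RefSeq promoters.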

Additional observations from a re-analysis of the deposited data

How the results depend on the processing

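With 2 arrays a group, an effect had to be large and even to be called, and 1 pool could decide a value. None of the 10 genes was called between transgenes before resection, but 3 were with a replicate block, 5 with only the 4 arrays compared and 7 by the interval criterion of 1.5; leaving out each array in turn gave 0 to 8. The transgene average called 2 of the 10, among 1528 of all genes. It called 0 under quantile normalization (1351 of all genes), without the variance trend (1304) or with the replicate block within transgene (2231). With variances over all probe sets it also called 0 (959 of all genes). It called 1 with the mean of all probe sets (1365) or the RNA integrity covariate (1512). With an array left out, the average was −1.66 to −0.86 for H2-Ab1 and −1.49 to −0.77 for H2-Aa. Without both βgal replicate 1 arrays it was −1.21 and −1.32. With an array left out, resection in βgal livers was −1.32 to −1.10 for Psmb9. Why the calls changed was not tested. No source says whether the replicate numbers pair the arrays. Deviations from group means correlated at 0.62 between post-βgal and pre-βgal, whose replicate 1 arrays both have high β-actin ratios. Between other groups they correlated at −0.14 to 0.16. With the replicate block within transgene, 2095 of all genes were called for resection in βgal livers, against 710 in the fit reported. Pairing was thus left unsettled, and the replicate block is only a description. That block gave 3 calls also for the transgene average, among 1872 of all genes. Over all genes, calls before resection ranged from 18 to 2407 between settings, against 823 in the fit reported.

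Signs turned as follows, all without a call. After resection, post-A20 minus post-βgal was −0.00042 for B2m and −0.0083 for Tap1 with median centring, 0.088 for Psmb8 with the replicate block within transgene, −0.10, −0.063 and −0.015 for B2m, Tap1 and Tap2 without both βgal replicate 1 arrays, and −0.079 for B2m with the integrity covariate. With 1 array left out it ranged from −0.10 to 0.21 for B2m, −1.74 to 0.23 for Cd74, −1.58 to 0.019 for H2-Ab1, −1.44 to 0.15 for H2-Eb1, −1.09 to 0.61 for Psmb8, −0.62 to 0.94 for Psmb9, −0.70 to 0.80 for Tap1 and −0.53 to 0.66 for Tap2. Before resection, pre-A20 minus pre-βgal was 0.049 for Ciita with the replicate block within transgene and −0.017 for B2m without both βgal replicate 1 arrays, and ranged from −0.19 to 0.048 for Ciita and −0.017 to 0.39 for B2m with an array left out. Resection in βgal livers was −0.0017 for B2m and 0.017 for H2-Eb1 without both βgal replicate 1 arrays and −0.025 for B2m with the covariate, and ranged from −0.16 to 0.25 for B2m and −0.21 to 0.032 for Ciita with an array left out. Resection in A20 livers ranged from −0.53 to 1.43 for Cd74, −0.28 to 1.16 for H2-Aa, −0.18 to 1.42 for H2-Ab1, −0.35 to 1.25 for H2-Eb1, −0.52 to 1.17 for Psmb8, −0.72 to 0.85 for Psmb9 and −0.035 to 1.46 for Tap1. The transgene average was −0.045 for Ciita with the mean of all probe sets, −0.059 for B2m and −0.050 for Ciita without both βgal replicate 1 arrays, −0.034 and −0.046 with the covariate, and −0.033 to 0.089 for Ciita with an array left out. The interaction ranged from −0.026 to 1.94 for Cd74, −0.016 to 1.43 for H2-Aa and −0.33 to 0.074 for B2m. Before resection the 8 genes kept a negative log2 difference under every alternative run.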
